A study of Mus musculus with 30 samples.

Results

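Transcript levels of 7 genes of iron uptake, export and recycling were followed in 30 mouse mammary tumors. The genes were Tfrc, Slc11a2, Slc40a1, Slc11a1, Spic, Hmox1 and Fth1, 7 of the 19505 named genes on the array. They were picked by symbol, for their roles in iron handling, with earlier results of these same arrays known, so their p-values describe these tumors and are not independent support. The contrast of Spic between lean and obese mice was among those results, and for that contrast Spic is given without a test.

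Each tumor grew in the 4th mammary fat pad of a female C57BL/6NCrl mouse from injected cells of 1 mammary carcinoma line, E0771. Injection was 25 weeks after the mice were first randomized to diets. There were 6 tumors in each of 5 groups. CON-LFD mice ate the control low-fat diet throughout and were never obese. The other 4 groups were made obese with a high-fat diet of 60% fat. Of these, the DIO-HFD group continued on that diet and remained obese. Weight loss followed vertical sleeve gastrectomy, in which most of the stomach is removed, and low-fat feeding in DIO-VSG. It came from chronic calorie restriction in DIO-CCR and from calorie restriction given intermittently in DIO-ICR. All groups but DIO-VSG had a sham operation, and all mice were bought at 1 age. The tumors are whole tissue, so fewer cells of a type and less RNA per cell cannot be told apart in any result here. Levels are log2 values, on which a difference of 1 is a doubling, and values after ± are SDs for a group of 6 and standard errors for a difference. Replicate numbers are names only.

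Cells take up iron bound to transferrin through the transferrin receptor (Tfrc), and the metal leaves the endosome through the transporter DMT1 (Slc11a2). Ferroportin (Slc40a1) is the known exporter of cellular iron. Iron-recycling macrophages, best known from spleen red pulp and liver, engulf spent red cells, break down their heme with heme oxygenase 1 (Hmox1), and return the iron to plasma through ferroportin. Spic is a transcription factor of the ETS family that these macrophages need, and heme induces it. Slc11a1 (NRAMP1) moves iron out of the phagosome of macrophages and neutrophils, and Fth1 is the heavy chain of ferritin, the iron store. Tfrc and ferritin messages carry iron-responsive elements, through which low iron stabilizes the former and holds back translation of the latter.

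Promoter windows, 250 bases before to 50 after a transcript's start, were taken from RefSeq on build GRCm38.p6 and matched 4 of the 7 genes. These were Tfrc, Spic, Fth1 and Slc11a1, with no window for Hmox1, Slc40a1 or Slc11a2. The windows of Tfrc and Spic are printed, 5′ to 3′ on the strand of the gene, since the results turn on these genes. Capitals mark short motifs searched on both strands. The Tfrc window lies at chr16:32608872-32609171, on the plus strand, and covers both annotated starts of the gene. The Spic window lies at chr10:88682974-88683273, on the minus strand.
Tfrc: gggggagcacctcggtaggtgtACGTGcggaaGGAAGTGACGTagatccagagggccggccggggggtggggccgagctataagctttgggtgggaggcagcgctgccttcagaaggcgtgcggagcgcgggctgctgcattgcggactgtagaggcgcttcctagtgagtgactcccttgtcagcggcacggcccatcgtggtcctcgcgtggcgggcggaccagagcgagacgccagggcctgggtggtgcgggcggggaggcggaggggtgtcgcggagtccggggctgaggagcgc
Spic: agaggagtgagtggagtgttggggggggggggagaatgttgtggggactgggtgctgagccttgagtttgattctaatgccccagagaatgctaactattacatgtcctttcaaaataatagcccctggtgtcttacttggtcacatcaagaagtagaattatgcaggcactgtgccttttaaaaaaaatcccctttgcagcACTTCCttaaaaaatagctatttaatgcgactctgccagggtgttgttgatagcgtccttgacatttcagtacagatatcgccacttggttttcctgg
In Tfrc a hypoxia response core (ACGTG), an ETS core (GGAAGT) and a cyclic AMP response core (TGACGT) stood within a few bases of each other, the last 2 sharing a single base. The first base of the hypoxia core lay 2 bases before the earlier start. In Spic the marked letters are an ETS core on the other strand, 48 bases before the start. Of 32851 windows of the same length, ACGTG was found in 19.6%, GGAAGT in 23.8%, TGACGT in 7.5%, and all 3 in 0.91%. The E-box CACGTG, which contains ACGTG, was in 7.2% of windows and the antioxidant response motif TGACNNNGC in 12.4%. Neither was in a window of the 4 matched genes, and Hmox1, Slc40a1 and Slc11a2 were not searched. A match is a description of letters, not of binding.

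Array medians lay between 6.41 and 6.79. Some tumors held other tissue. Lymph node genes marked DIO-VSG tumors 1 and 5 and DIO-HFD tumor 5, with B cell list means of 10.61, 5.22 and 6.81 where the others reached at most 4.16. Skeletal muscle genes marked DIO-VSG tumors 4 and 3 and CON-LFD tumor 5, with muscle list means of 10.68, 6.78 and 7.28 where the others reached at most 5.49. Results that changed without these tumors are given with and without them.

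With Spic left out of the F-test over the groups, Tfrc had the smallest p of the members tested. It ran from a lowest value of 12.15 through a median of 12.27 to a highest of 13.15 in CON-LFD, and from 12.50 through 13.78 to 14.07 in DIO-HFD. DIO-VSG tumors ran from 12.08 through 12.70 to 13.22, DIO-CCR tumors from 12.75 through 13.44 to 14.31, and DIO-ICR tumors from 13.56 through 13.81 to 13.95. CON-LFD and DIO-VSG were thus the low groups, and every DIO-ICR tumor lay above every tumor of both. The group means were 12.46 ± 0.41 in CON-LFD, 12.64 ± 0.44 in DIO-VSG, 13.50 ± 0.59 in DIO-CCR, 13.54 ± 0.57 in DIO-HFD and 13.79 ± 0.15 in DIO-ICR, and of the neighbours in this order DIO-VSG and DIO-CCR alone differed by more than their pooled SD (0.86 against 0.52).

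In the comparison of never-obese with obese mice, Tfrc was 2.12-fold lower in CON-LFD than in DIO-HFD tumors (difference -1.08 ± 0.25, limma adjusted p = 0.0301), with 4 of 6 CON-LFD tumors below all DIO-HFD tumors. It was the 1 member of 6 tested that passed, where 0.995% of all genes did, and 2 of the 6 had an unadjusted p under 0.05, beside 2381 of all 19505 genes. The call was lost in 8 of the 12 fits that left out 1 array of these groups (highest adjusted p = 0.0901), and in a fit of these 2 groups alone (adjusted p = 0.0719). Tfrc was 2.52-fold higher in DIO-ICR than in CON-LFD (1.33 ± 0.25, adjusted p = 0.00893), and this call was kept in all 12 such fits (highest adjusted p = 0.0338). The DIO-VSG tumors had a mean 0.90 ± 0.25 below that of DIO-HFD, which did not pass (adjusted p = 0.169, or 0.138 without the lymph node tumors), nor did DIO-CCR against CON-LFD (1.04 ± 0.25, adjusted p = 0.0614). Between DIO-CCR and DIO-HFD the difference was -0.04, with a 95% interval from -0.56 to 0.48. Over the 5 groups the F-test gave Tfrc an adjusted p of 0.00791, the 1 of 6 members tested to pass, against 1.64% of all genes.

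The other importer, Slc11a2, had group means within 0.44 of each other, from 9.95 ± 0.46 in DIO-VSG to 10.39 ± 0.23 in CON-LFD. Its single tumors ranged from 9.26 to 10.77, and all groups overlapped. No comparison passed (F-test adjusted p = 0.578), and the CON-LFD minus DIO-HFD difference of 0.30 had a 95% interval from -0.07 to 0.68. Its single probe set does not separate Slc11a2 messages with and without an iron-responsive element.

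**Figure D1:**
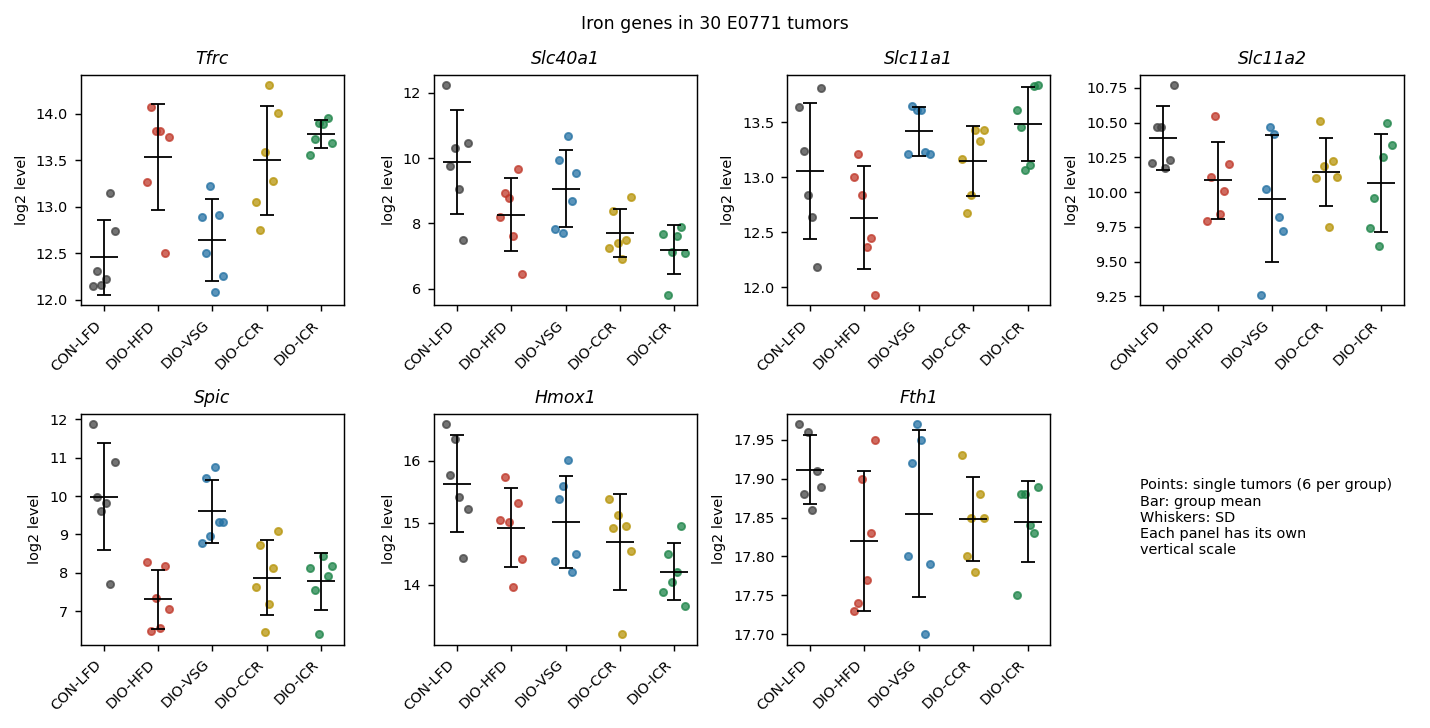
Log2 levels of the 7 iron genes in single tumors, by group, with the group mean as a bar and the SD as whiskers. Tfrc was low in CON-LFD and DIO-VSG, where Spic was high, while the 30 Fth1 values lay between 17.70 and 17.97.

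Slc40a1, which encodes the exporter ferroportin, was among the most variable genes of the array, with an SD over 30 tumors above that of 99.6% of genes. In CON-LFD it ran from 7.49 through a median of 10.04 to 12.24, and in DIO-HFD from 6.46 through 8.49 to 9.66. It ran from 7.72 through 9.12 to 10.68 in DIO-VSG, from 6.90 through 7.45 to 8.81 in DIO-CCR, and from 5.81 through 7.37 to 7.89 in DIO-ICR. The highest single tumor was in CON-LFD and the next in DIO-VSG, and a single CON-LFD tumor, the 5th, lay among those of DIO-ICR. The order of the group means was DIO-ICR, DIO-CCR, DIO-HFD, DIO-VSG and CON-LFD, with no neighbours apart by their pooled SD.

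Slc40a1 was 6.42-fold lower in DIO-ICR than in CON-LFD (difference -2.68 ± 0.61, adjusted p = 0.0236), the 17th largest difference of all genes in that comparison. The call was lost without CON-LFD tumor 3 or DIO-ICR tumor 2 (highest adjusted p = 0.0724). DIO-CCR stood at -2.18 ± 0.61 against CON-LFD without passing (adjusted p = 0.112). The CON-LFD mean was 1.61 ± 0.61 above that of DIO-HFD (95% interval 0.37 to 2.86, adjusted p = 0.230), which did not pass either. No comparison with DIO-HFD did.

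Slc11a1, the phagosomal transporter, had its lowest mean in the obese group. Its values ran from 11.93 through a median of 12.65 to 13.21 in DIO-HFD, and from 13.21 through 13.42 to 13.65 in DIO-VSG, so that the ranges met at a single value. In CON-LFD they ran from 12.18 through 13.04 to 13.81, in DIO-CCR from 12.68 through 13.25 to 13.43, and in DIO-ICR from 13.07 through 13.54 to 13.84. The differences from DIO-HFD were 0.79 ± 0.23 in DIO-VSG (adjusted p = 0.189), 0.85 ± 0.23 in DIO-ICR (adjusted p = 0.0967), 0.51 ± 0.23 in DIO-CCR (adjusted p = 0.364) and 0.43 ± 0.23 in CON-LFD (adjusted p = 0.490). None passed, and all 4 share the same DIO-HFD arrays. Slc11a1 had r = 0.58 over the 30 tumors with the mean of 8 macrophage markers, and 0.71 once group means were taken out.

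Spic was high in CON-LFD and DIO-VSG and low in the other groups. It ran from 7.72 through a median of 9.90 to 11.87 in CON-LFD and from 6.49 through 7.20 to 8.27 in DIO-HFD. In DIO-VSG it ran from 8.77 through 9.33 to 10.75, in DIO-CCR from 6.47 through 7.88 to 9.10, and in DIO-ICR from 6.40 through 8.03 to 8.45. Of the CON-LFD tumors 5 of 6 lay above all DIO-HFD tumors, the exception again being the 5th, and all 6 DIO-VSG tumors lay above all those of DIO-HFD and of DIO-ICR. In the order of the group means, DIO-CCR and DIO-VSG differed by 1.73, against a pooled SD of 0.90, and the other neighbours by less than theirs. Neutrophil markers were also highest in CON-LFD and DIO-VSG, as given with the marker lists.

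Described without a test, the Spic difference between CON-LFD and DIO-HFD was 2.67 ± 0.53, or 6.36-fold, the 10th largest of all genes. DIO-VSG tumors were 2.29 ± 0.53 above DIO-HFD tumors, or 4.88-fold, the 8th largest difference of all genes. This did not pass (adjusted p = 0.0729, or 0.0449 with array weights). It is set against the same low DIO-HFD arrays as the contrast on which Spic was chosen, so the p-value is not independent of that choice. There 0 of 7 members passed, against 0.154% of all genes, and 3 had an unadjusted p under 0.05, beside 2022 of all 19505 genes. Spic was the 1 member whose groups did not overlap, as was true of 0.882% of all genes. The difference was 2.73 ± 0.62 (adjusted p = 0.172) without the lymph node tumors and 2.16 ± 0.51 (adjusted p = 0.109) without the muscle tumors. The difference from DIO-HFD was 0.56 (95% interval -0.52 to 1.64) in DIO-CCR and 0.46 (-0.62 to 1.54) in DIO-ICR.

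Spic was 4.62-fold lower in DIO-ICR than in CON-LFD (-2.21 ± 0.53, adjusted p = 0.0293), a comparison that uses the same CON-LFD arrays as the contrast on which Spic was chosen. This call was lost without any 1 of 8 arrays (highest adjusted p = 0.0713) and in a fit of the 2 groups alone. Against DIO-VSG, DIO-ICR was at -1.83 ± 0.53 (adjusted p = 0.315) with no overlap and DIO-CCR at -1.73 ± 0.53 (adjusted p = 0.264). For DIO-ICR against DIO-VSG, Tfrc and Spic were the 2 members of 7 whose groups did not overlap, against 0.338% of all genes, and 0 of 7 passed the test, against 0.0308% of all genes. In that comparison 4 of the 7 had an unadjusted p under 0.05, beside 1632 of all 19505 genes. Without the lymph node tumors Tfrc passed there (1.27 ± 0.26, adjusted p = 0.0469), 1 of 15 genes that did.

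Hmox1, which cleaves heme and releases its iron, had the highest mean in CON-LFD, 15.63 ± 0.79, and the lowest in DIO-ICR, 14.21 ± 0.46. Single tumors ran from 14.43 through a median of 15.60 to 16.59 in CON-LFD and from 13.66 through 14.12 to 14.95 in DIO-ICR. The means of DIO-HFD (14.92 ± 0.64), DIO-VSG (15.01 ± 0.75) and DIO-CCR (14.69 ± 0.78) lay between. Hmox1 was 2.69-fold lower in DIO-ICR than in CON-LFD (-1.43 ± 0.38), at an adjusted p of 0.04996, and 4 of 6 DIO-ICR tumors lay below all CON-LFD tumors. The call sat on the threshold and was lost without any 1 of 10 of the 12 arrays (highest adjusted p = 0.145) and with trended, robust variances.

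Fth1 read nearly the same in every tumor. Its group means lay between 17.82 ± 0.09 in DIO-HFD and 17.91 ± 0.04 in CON-LFD, a difference of 0.09 with a 95% interval from -0.05 to 0.23, and 0.123% of genes had a lower SD over the 30 tumors. Its 30 values lay between 17.70 and 17.97, near the highest value of the whole table, 18.57. Signals near the ceiling of an array compress differences, so these readings do not show that the message was even. Ferritin is controlled largely in translation, which an array of messages does not read.

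**Figure D2:**
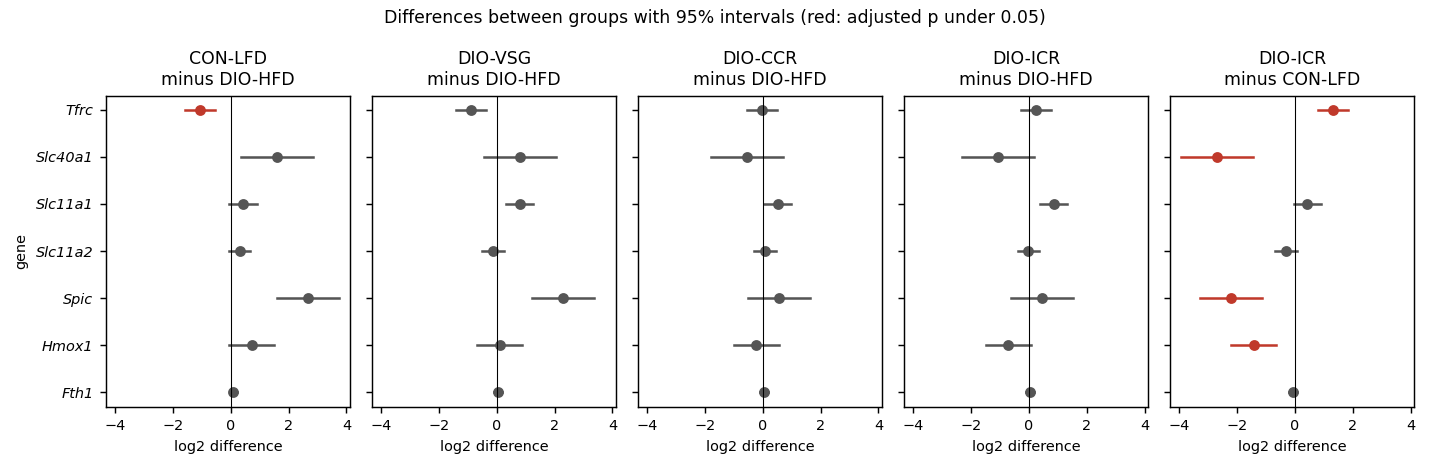
Differences in log2 level between groups for the 7 genes, as points with 95% intervals, red where the adjusted p was under 0.05. Spic in CON-LFD minus DIO-HFD (2.67) is shown without a test. The calls lie in DIO-ICR minus CON-LFD, apart from Tfrc in CON-LFD minus DIO-HFD.

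Across the members, DIO-ICR against CON-LFD had the most calls, with Tfrc higher and Slc40a1, Spic and Hmox1 lower, 4 of 7 where 1.57% of all genes passed. Without Spic, 3 of 6 passed. The count of 4 fell to 1 without CON-LFD tumor 3 or DIO-ICR tumor 2, to 2 without CON-LFD tumor 1, 2 or 4 or DIO-ICR tumor 3 or 5, and to 0 with the adipocyte, macrophage or neutrophil list as a covariate. Tfrc was the 1 member whose groups did not overlap there, as held for 1.73% of all genes. In the remaining comparisons 0 of 7 members passed. Those were DIO-CCR against DIO-HFD (0.354% of all genes passed, 1 member with an unadjusted p under 0.05), DIO-ICR against DIO-HFD (0.461%, 1 member), DIO-VSG against CON-LFD (0.0256%, 1 member), DIO-CCR against CON-LFD (0.415%, 4 members), DIO-CCR against DIO-VSG (0.0513%, 3 members) and DIO-CCR against DIO-ICR (0%, 0 members). At an unadjusted p under 0.05 stood 928 to 2742 of all 19505 genes in the 10 comparisons, with 2228 in DIO-CCR against CON-LFD and 1824 in DIO-CCR against DIO-VSG. Comparisons that share a group share its arrays.

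Without the 3 muscle tumors, Tfrc, Slc40a1 and Spic passed in DIO-CCR against CON-LFD, 3 members in place of 0. Over all genes 53 passed there in place of 81. Tfrc alone of the members passed in that comparison without the 3 lymph node tumors, where 158 of all genes did. None of those tumors is in DIO-CCR or CON-LFD, so the differences stayed the same and only the shared estimate of spread changed. For Spic the comparison uses the same CON-LFD arrays as the contrast on which it was chosen. CON-LFD tumor 5 had a muscle list mean of 7.28 against 4.11 to 4.89 in the other CON-LFD tumors, and it had the lowest Slc40a1, Spic, Hmox1 and Slc11a1 and the highest Tfrc of its group. Without that tumor alone, 3 members passed in DIO-CCR against CON-LFD. DIO-HFD tumor 5 had the lowest Tfrc and the highest Slc40a1 of its group.

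Slc40a1 and Spic levels went together from tumor to tumor. Over the 30 tumors Pearson's r was 0.80 (Spearman's rho 0.77), 0.75 once group means were taken out, 0.70 without the 2 tumors farthest in Slc40a1, and between 0.33 and 0.94 within each group. Tfrc ran the other way, with r = -0.78 to Spic (-0.51 without group means) and -0.73 to Slc40a1 (-0.49), and r with Spic was below 0 within every group, from -0.84 to -0.22. Hmox1 had r = 0.72 with Slc40a1, 0.54 with Spic and -0.64 with Tfrc. Slc11a2 and Fth1 had r = 0.53 with each other. These are descriptions over tumors that share array processing and differ in cell makeup, 21 pairs having been computed.

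**Figure D3:**
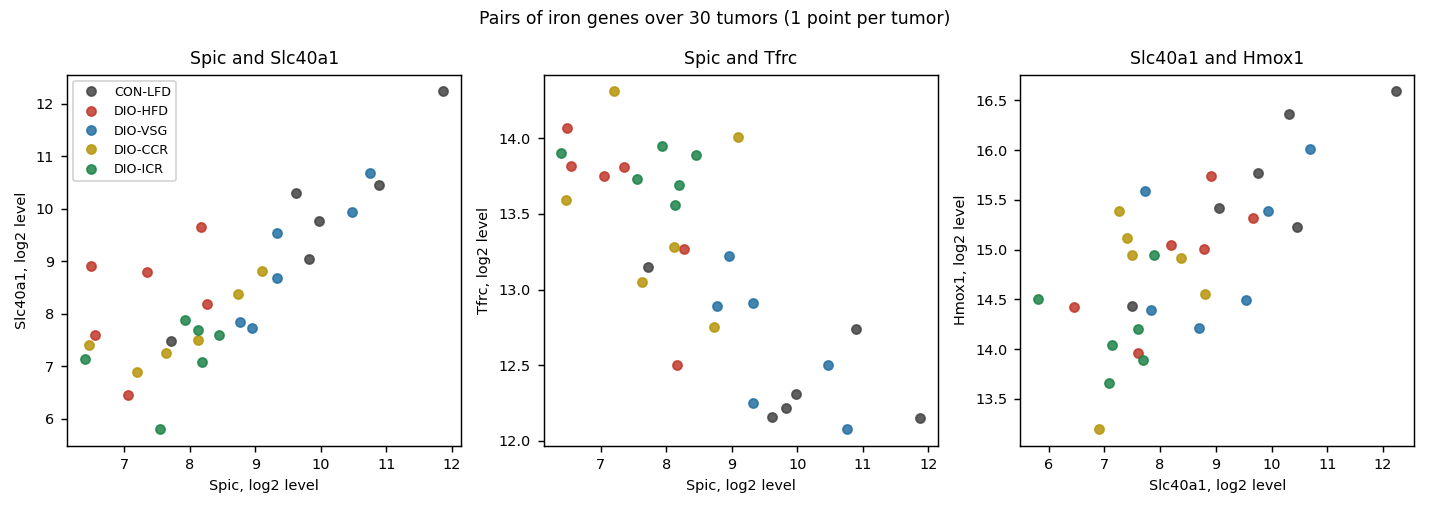
Log2 levels of pairs of iron genes, 1 point per tumor, coloured by group. Slc40a1 was higher where Spic was higher (r = 0.80 over 30 tumors), Tfrc was lower where Spic was higher (r = -0.78), and Hmox1 was higher where Slc40a1 was higher (r = 0.72).

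Among named genes without a placeholder symbol, the one most like Slc40a1 over the 30 tumors was Spic, and the reverse also held. After Slc40a1, Spic was most like Serpinb9b (r = 0.79, 0.59 without group means), a serine protease inhibitor, and Il1b (0.76, 0.49), the cytokine interleukin 1β. For Slc40a1 the next were Ngef (0.75) and Dll1 (0.74), the Notch ligand. Tfrc was most like Tnip3 (0.75), Ppp2r5c (0.74) and Rbl1 (0.74), which encodes the cell cycle regulator p107. Slc11a1 was most like 3 leukocyte genes, Ctsc (0.88), which encodes the protease cathepsin C, Itgb2 (0.87), which encodes the integrin β2 chain, and Lcp2 (0.85), the adaptor SLP-76. Hmox1 was most like Mvp (0.80), the major vault protein, Septin11 (0.80) and Ppbp (0.78), a platelet chemokine. For Slc11a2 the 3 were Samd4 (0.76), Soga1 (0.72) and Cdc37 (0.72), and for Fth1 they were Nlrp12 (0.67), the copper chaperone Atox1 (0.67) and Nt5c (0.66).

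Around the members, 12 lists with 114 other measured genes were read, 9 of them on iron and heme handling and on NRF2 and BACH1, and 3 on proliferation, hypoxia and heat shock. In CON-LFD against DIO-HFD 2 of these passed, both higher, 1.75% of the lists against 0.995% of all genes. They were Trf, which encodes the iron carrier transferrin itself, at 13.38 ± 0.54 against 11.67 ± 0.59 (difference 1.71 ± 0.32, adjusted p = 0.00674), and Lcn2, which encodes the siderophore-binding lipocalin 2 and is abundant in neutrophils, at 12.86 ± 1.83 against 8.90 ± 0.86 (3.96 ± 0.75, adjusted p = 0.00699). Both stood in the uptake list, of which 13 genes were measured beside the members. Between DIO-VSG and DIO-HFD the same genes differed by 1.29 ± 0.32 (adjusted p = 0.109) and 2.93 ± 0.75 (adjusted p = 0.113) without passing. In the comparisons of DIO-VSG, DIO-CCR and DIO-ICR with DIO-HFD, 0 of the 114 genes passed. In those comparisons an unadjusted p under 0.05 was held by 10 to 12 of the 114, beside 2022 to 2354 of all 19505 genes. There the lists did not stand out. In CON-LFD against DIO-HFD it was held by 25 of the 114, beside 2381 of all 19505 genes.

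In DIO-ICR against CON-LFD 5 of the 114 genes passed, 4.39% against 1.57% of all genes, 1 higher and 4 lower, with the hypoxia list holding 1 of the latter. Trf (-1.47 ± 0.32, adjusted p = 0.0194) and Lcn2 (-2.82 ± 0.75, adjusted p = 0.0496) were lower, as was Slc39a14 (-0.67 ± 0.18, adjusted p = 0.0474), the transporter ZIP14 of iron not bound to transferrin, named after its value was seen. Ndrg1, a gene induced by hypoxia and by iron chelation, was lower too (-0.71 ± 0.14, adjusted p = 0.0104). Alas1, the first enzyme of heme synthesis in most cells, was higher (0.44 ± 0.10, adjusted p = 0.0197). The median difference over the 114 genes was -0.06, against 0.01 over all genes. Without CON-LFD tumor 3 or CON-LFD tumor 4 the count was 1, and without CON-LFD tumor 2 or DIO-ICR tumor 3, 5 or 6 it was 3.

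No other list had a call in these comparisons. Their genes with the smallest F-test p were Cp, the ferroxidase ceruloplasmin (DIO-ICR minus DIO-HFD 1.53 ± 0.51, adjusted p = 0.211), Slc7a11, the cystine transporter and NRF2 target (DIO-VSG minus DIO-HFD 1.56 ± 0.46, adjusted p = 0.193), Fbxl5, the iron sensor that marks IRP2 for breakdown (DIO-ICR minus CON-LFD -0.41 ± 0.11, adjusted p = 0.0613), and Atp7a, a copper pump (CON-LFD minus DIO-HFD 0.44 ± 0.13, adjusted p = 0.104). The rest were Flvcr2, Pcbp2, Mafk, Rrm2 and Dnajb1, with F-test adjusted p from 0.0959 to 0.749. Of the 11 NRF2 and BACH1 targets measured beside Hmox1 and Fth1, 10 were lower in sign in DIO-ICR than in CON-LFD, with 0 calls. Their median was -0.31, against 0.01 over all genes. Against CON-LFD, 2 of the 11 were higher in DIO-VSG (median -0.20, all genes -0.01) and 4 in DIO-CCR (median -0.14, all genes 0.01). The 11 proliferation genes had 0 calls against DIO-HFD. Their median difference from DIO-HFD was -0.22 in CON-LFD, -0.20 in DIO-VSG, -0.15 in DIO-CCR and -0.06 in DIO-ICR, beside all-gene medians of -0.04, -0.05, -0.02 and -0.03, and Tfrc had r = 0.44 with the list, or 0.05 once group means were taken out.

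**Figure D4:**
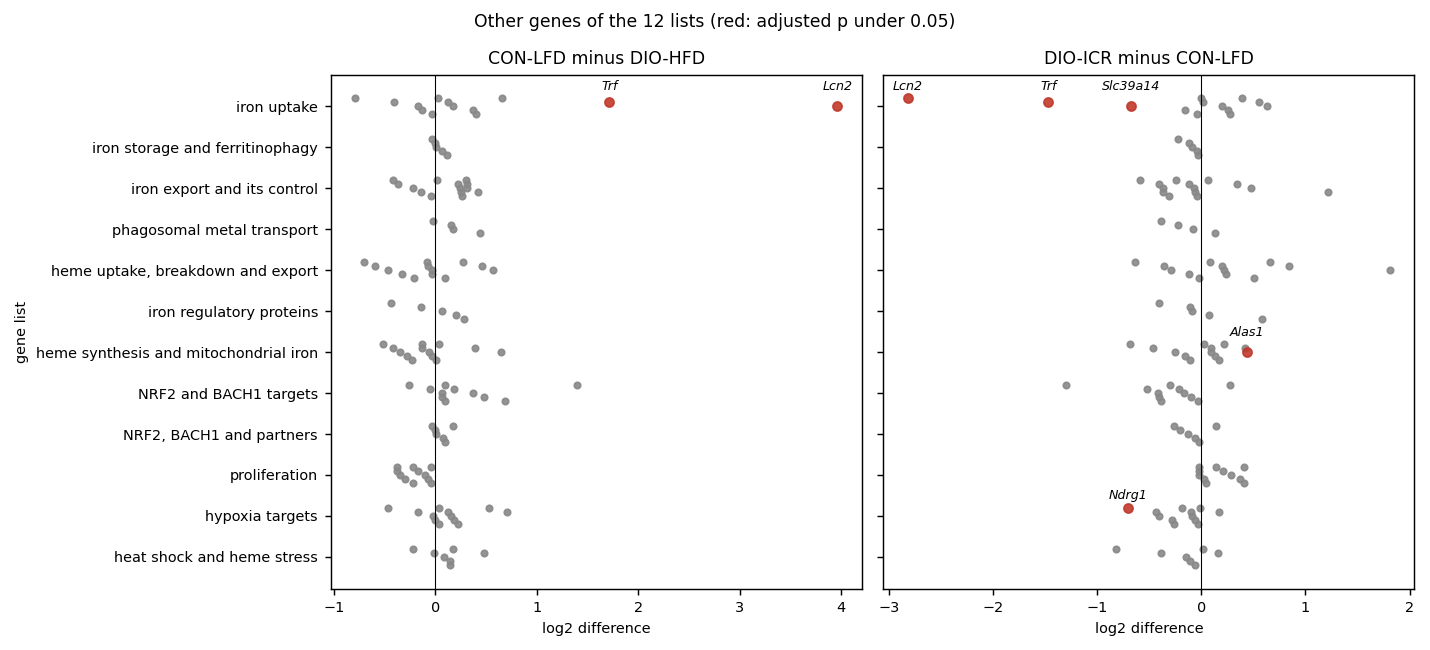
Log2 differences of the 114 other genes of the 12 lists, by list, in CON-LFD minus DIO-HFD (left) and DIO-ICR minus CON-LFD (right), 1 point per gene, red and named where the adjusted p was under 0.05. There were 2 calls on the left and 5 on the right.

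Of the leukocyte lists, the neutrophil list was high in the groups in which Spic was high. The mean over 9 neutrophil markers lay between 6.99 and 10.18 in CON-LFD and 7.85 and 8.61 in DIO-VSG, and between 5.57 and 7.48 in DIO-HFD, 6.05 and 7.33 in DIO-CCR and 5.65 and 7.03 in DIO-ICR. Of the 9 genes 5 were called higher in CON-LFD than in DIO-HFD, where 0.995% of all genes were called. In DIO-ICR 4 were called lower than in CON-LFD, where 1.57% of all genes were called. In DIO-VSG 2 were called higher than in DIO-HFD (0.154% of all genes called). In DIO-ICR 2 were called lower than in DIO-VSG (0.0308%), and in DIO-CCR 1 lower than in CON-LFD (0.415%). Spic had r = 0.67 with this list over the 30 tumors and 0.16 without group means, and Tfrc had -0.71 and -0.24. For Slc40a1 these were 0.57 and 0.20, and for Hmox1 0.61 and 0.50. The mean over 8 macrophage markers was lowest in CON-LFD, at 11.12 to 12.12, and reached 11.90 to 12.78 in DIO-HFD and 12.16 to 13.09 in DIO-ICR. In DIO-VSG it was 12.08 to 12.56 and in DIO-CCR 11.76 to 12.74. Of the 8 genes 5 were called higher in DIO-ICR than in CON-LFD, against 1.57% of all genes called there. Over the 30 tumors r with this list was -0.29 for Spic, -0.33 for Slc40a1, -0.26 for Hmox1 and 0.56 for Tfrc. Without group means it was 0.12 for Spic, 0.15 for Slc40a1, 0.20 for Hmox1 and 0.37 for Tfrc. The mean over 7 monocyte markers was 11.38 in CON-LFD, 11.04 in DIO-HFD, 11.86 in DIO-VSG, 11.75 in DIO-CCR and 11.51 in DIO-ICR. Against DIO-HFD, 2 of 7 were called higher in DIO-VSG (0.154% of all genes called) and 1 in DIO-ICR (0.461%).

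The label of Spic as a factor of iron-recycling macrophages was checked against 11 other markers of those cells. The mean of all 12, with Spic, was 8.33 in CON-LFD, 8.14 in DIO-HFD, 8.59 in DIO-VSG, 8.31 in DIO-CCR and 8.38 in DIO-ICR. Spic had r = 0.03 with the other 11 over the 30 tumors. The group medians of the 12-gene mean were 8.36, 8.10, 8.41, 8.43 and 8.27 in the same order. The highest DIO-VSG tumor stood at 9.77, where no tumor of the other groups exceeded 8.85, so the DIO-VSG mean rests in part on it. In DIO-VSG against DIO-HFD, where Spic was at 2.29, the median difference of the other 11 was 0.53 with that tumor included, against -0.05 over all genes. There were 0 calls, and 6 of 11 were higher in sign. In CON-LFD against DIO-HFD the median difference was -0.01 against -0.04, with 0 calls. In DIO-ICR against CON-LFD 1 of the 11 was called, where 1.57% of all genes were. This was Siglec1 (CD169), which was higher (1.26 ± 0.27, adjusted p = 0.0192) where Spic was lower. Over the 5 groups the means of Mrc1 and Axl lay between 14.14 and 15.02, those of Vcam1, Nr1h3, Siglec1 and Cd163 between 7.12 and 10.54, and those of Marco, Treml4, Timd4, Cd5l and Clec4f between 3.52 and 6.58. The array has no zero, and levels of different genes are not comparable on it. Spic is therefore described as a gene, and its cell source in these tumors was not tested.

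With the neutrophil list as a covariate, Spic stood at -1.79 ± 0.73 (adjusted p = 0.456) in DIO-ICR against CON-LFD and Tfrc at 1.03 ± 0.35 (adjusted p = 0.389), and with the macrophage list at -2.49 ± 0.71 (0.365) and 0.90 ± 0.32 (0.518). Over all genes these 2 fits made 0 calls in that comparison, so they say little of a single gene. Hmox1 moved most, from -1.43 to -0.47 ± 0.46 with the neutrophil list. The lists differ between the groups themselves, so the part of the cell makeup in these results cannot be told apart from the group. The mean over the red blood cell markers stayed between 4.32 and 5.15 over all tumors, with 6 of 12 listed genes measured, the hemoglobin genes not among them. The mean over the adipocyte markers was highest in DIO-CCR (7.76 to 11.33) and DIO-ICR (8.18 to 9.91), against 5.47 to 7.86 in CON-LFD. With the adipocyte list as a covariate, Tfrc stood at 1.38 in DIO-ICR against CON-LFD (adjusted p = 0.0804), none of the 7 members passed, and 23 genes did in all.

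**Figure D5:**
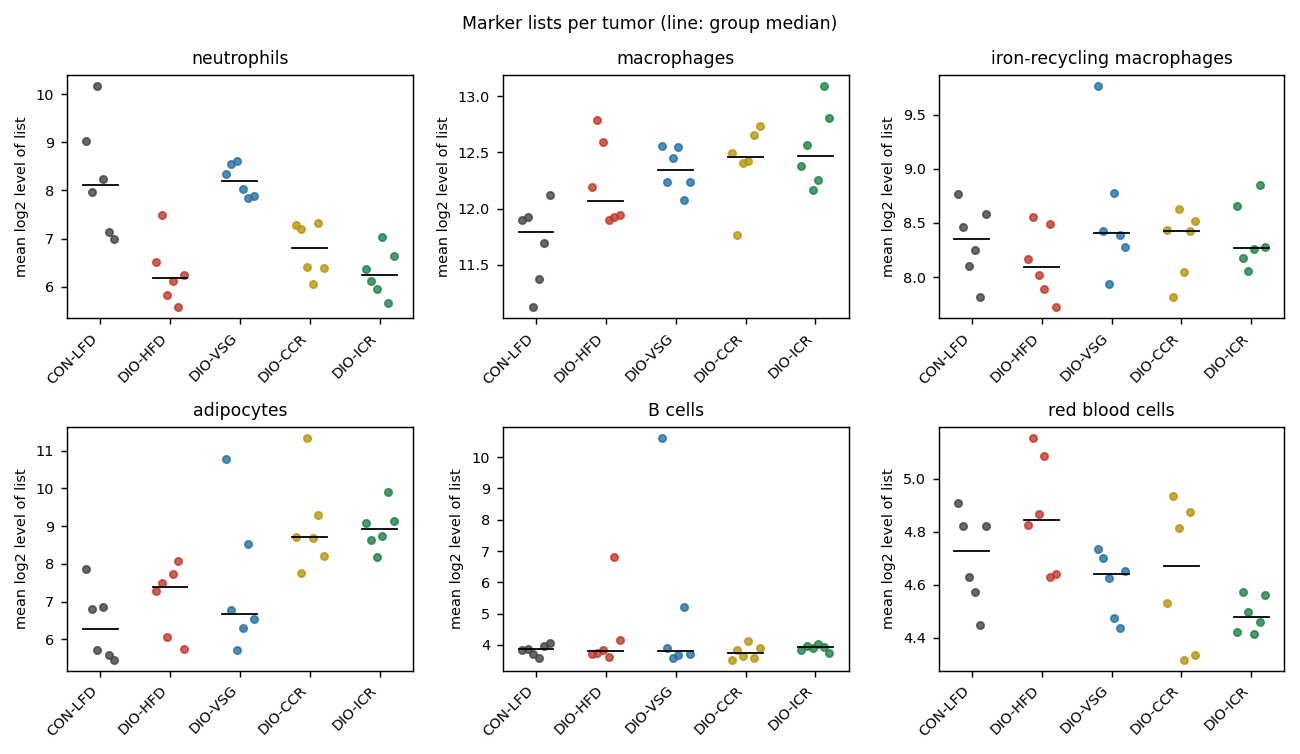
Mean log2 levels of the neutrophil, macrophage, iron-recycling macrophage, adipocyte, B cell and red blood cell lists in single tumors, by group. The line is the group median. The neutrophil mean reached 10.18 in CON-LFD and 8.61 in DIO-VSG and stayed at or below 7.48 in the other groups, while the B cell mean stood at 10.61 in DIO-VSG tumor 1 and 6.81 in DIO-HFD tumor 5.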

How the data were processed

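Tumor RNA was labelled with the WT PLUS kit and hybridized to Mouse Clariom S arrays. The authors made log2 expression values by signal space transformation with robust multichip averaging in the Transcriptome Analysis Console 4.0.2, and these deposited log2 values were used as given (22206 probe sets, 0 missing values). No source used here names the genome build behind the array. Arrays have no read depth, so their number limits the precision.

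Of the probe sets 19572 had 1 gene symbol, 0 several and 2634 none. Where 55 symbols had several probe sets the brightest was kept, which left 19505 genes. Each of the 7 members had 1 probe set, and gene coordinates and promoters came from RefSeq (GRCm38.p6). Levels of different probe sets are not comparable, so no gene was tested against another.

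Group means were fitted over all 30 arrays with limma 3.58.1 in R 4.3.3 (25 residual degrees of freedom), p-values were adjusted by Benjamini and Hochberg over 19505 genes for each of 10 comparisons and an F-test, and an adjusted p under 0.05 is called passed. The fit was tested on simulated data. The labels tie each tumor to a mouse of its own and give no pairing or batch.

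The members, the 23 gene lists and the alternatives were chosen with earlier results of these data known. From each pathway list the text names genes that passed against DIO-HFD, or else the gene with the smallest F-test p, and for each member the 3 genes with the highest r. Placeholder symbols, such as Gm with a number or those ending in Rik, were left out of that ranking by r. Lists were matched by symbol or synonym, and 5 of 119 genes of the lists and some markers were not analysed here. Alternatives were median centring or quantile normalization, no genes among the 30% dimmest, array weights, trended robust variances, all probe sets or their mean per symbol, 2 groups only, leaving out each array or the tumors with lymph node or muscle genes, and the adipocyte list as a covariate. Macrophage and neutrophil lists as covariates and the alternatives for genes of the lists in DIO-ICR against CON-LFD were added after seeing the data.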

Additional observations from a re-analysis of the deposited data

Results flagged for a closer look

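Of the 35 sets of 6 tumors formed by the 7 genes in 5 groups, 0 held a tumor that Dixon's criterion sets apart at the 95% level, where chance marks about 1 in 20. The nearest were Hmox1 in DIO-CCR tumor 4 (13.20, gap over range 0.616) and Slc40a1 in DIO-ICR tumor 2 (5.81, 0.611).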

How the results depend on the processing

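No called member changed sign under any alternative. Without 1 array at a time, members called ranged over 0 to 1 in CON-LFD against DIO-HFD, 0 to 3 in DIO-CCR against CON-LFD, 1 to 4 in DIO-ICR against CON-LFD and 1 to 2 in the F-test, and stayed at 0 elsewhere. Genes of the lists called ranged over 2 to 3 in CON-LFD against DIO-HFD, 0 to 1 in DIO-VSG against DIO-HFD, 1 to 7 in DIO-ICR against CON-LFD, and stayed at 0 for DIO-CCR and DIO-ICR against DIO-HFD. No paired analysis was possible because the labels number no replicates across groups.

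With array weights the members called were 1 in DIO-VSG against DIO-HFD (Spic), 2 in DIO-CCR against CON-LFD (Tfrc and Spic) and 2 in the F-test. Genes of the lists called were then 4 in CON-LFD and 1 in DIO-CCR against DIO-HFD. Both comparisons in which Spic was called share arrays with the contrast on which Spic was chosen. Over all genes, the weights raised the calls from 81 to 159 in DIO-CCR against CON-LFD and from 194 to 374 in CON-LFD against DIO-HFD. In DIO-VSG against DIO-HFD the calls over all genes changed little. In fits of 2 groups only, members called in CON-LFD against DIO-HFD were 0, and genes of the lists were 4 there, 1 in DIO-ICR against DIO-HFD and 3 in DIO-ICR against CON-LFD. Without the dimmest genes Tfrc and Spic were again called in DIO-CCR against CON-LFD, where calls over all genes rose as well. The F-test then called 2 members, and it also gave 2 with median centring. Without the lymph node tumors they were 1 in DIO-CCR against CON-LFD, 1 in DIO-ICR against DIO-VSG and 2 in the F-test, and without the muscle tumors 3 in DIO-CCR against CON-LFD and 2 in the F-test.

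With the adipocyte covariate, members called in DIO-ICR against CON-LFD were 0, and genes of the lists were 1 there and 1 in DIO-VSG against DIO-HFD. With the macrophage covariate members called were 0 in CON-LFD against DIO-HFD, 0 in DIO-ICR against CON-LFD and 0 in the F-test, and genes of the lists were 1 and 0 in those comparisons. With the neutrophil covariate all 5 of these counts were 0. Over all genes the macrophage covariate left 29 and 0 calls in CON-LFD against DIO-HFD and DIO-ICR against CON-LFD, and the neutrophil covariate 0 and 0. The causes were not tested.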
